A study of Drosophila melanogaster with 2 samples.

Results

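The Dpp/BMP pathway genes examined here are dpp, gbb, scw, tkv, put, sax, Mad, Med, shn and brk, 10 of the 13968 protein-coding genes on the chromosome arms of Drosophila melanogaster. They were taken from a fixed list of names, and each gene was given the peaks whose summit lay in the gene body or within 20 kb to either side. This gave 24 peaks, of 2772 on the arms. The peaks mark where the zinc-finger protein Oaz, carried as an Oaz-eGFP fusion by transgenic flies, was recovered with chromatin by an antibody to GFP. Whole embryos 0 to 24 hours old were used, in 1 group of 2 biological replicates, so all tissues and stages of embryogenesis are mixed in each value. There was no second condition, and no test was made: counts are set beside the same count over all genes or all peaks. There were 2846 listed peaks from both replicates together, 1833 from replicate 1 and 1680 from replicate 2. The number of reads behind each peak is unknown. The signal is the value the authors' peak caller gave each peak, on a scale not given in the sources used here.

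Decapentaplegic (dpp), glass bottom boat (gbb) and screw (scw) are secreted ligands of the bone morphogenetic protein family. They act through the type I receptors thickveins (tkv) and saxophone (sax) and the type II receptor punt (put), so that the transcription factor Mad is phosphorylated and enters the nucleus with Medea (Med). In the embryo this activity patterns the dorsal side and shuts off brinker (brk), a repressor of Dpp target genes, with the help of the zinc-finger protein schnurri (shn). In vertebrates, a relative of Oaz binds Smad proteins, the family of Mad and Medea, in BMP signalling.

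Oaz-eGFP peaks lay near most pathway genes, and none lay within 500 bp of a pathway gene's own transcription start. Of the 10 genes, 8 had a peak in their window, against 65.4% of all protein-coding genes, so having a peak within 20 kb is common. Transcription start sites (TSSs) of the pathway genes had no summit within 500 bp in any of the 10 cases. Of all genes 11.6% had one, so a count of 0 of 10 is near that share. The nearest summits to an own TSS lay 623 bp away at Mad and 774 bp away at brk. For 9 of the 24 peaks a pathway gene had the nearest TSS, with 5 of these at shn, 2 at dpp, 1 at Mad and 1 at brk. These are 4 of 10 genes, against 14.9% of all genes that were nearest to some summit. That share, here and for the other gene lists below, was not matched for gene length or number of TSSs. Of the 4 genes, shn has 5 TSSs, dpp 4, Mad 2 and brk 1. A further 8 peaks lay in the promoter of another gene, here 500 bp to either side of its TSS, and 7 were nearest to another gene's TSS but outside its promoter.

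**Figure D1:**
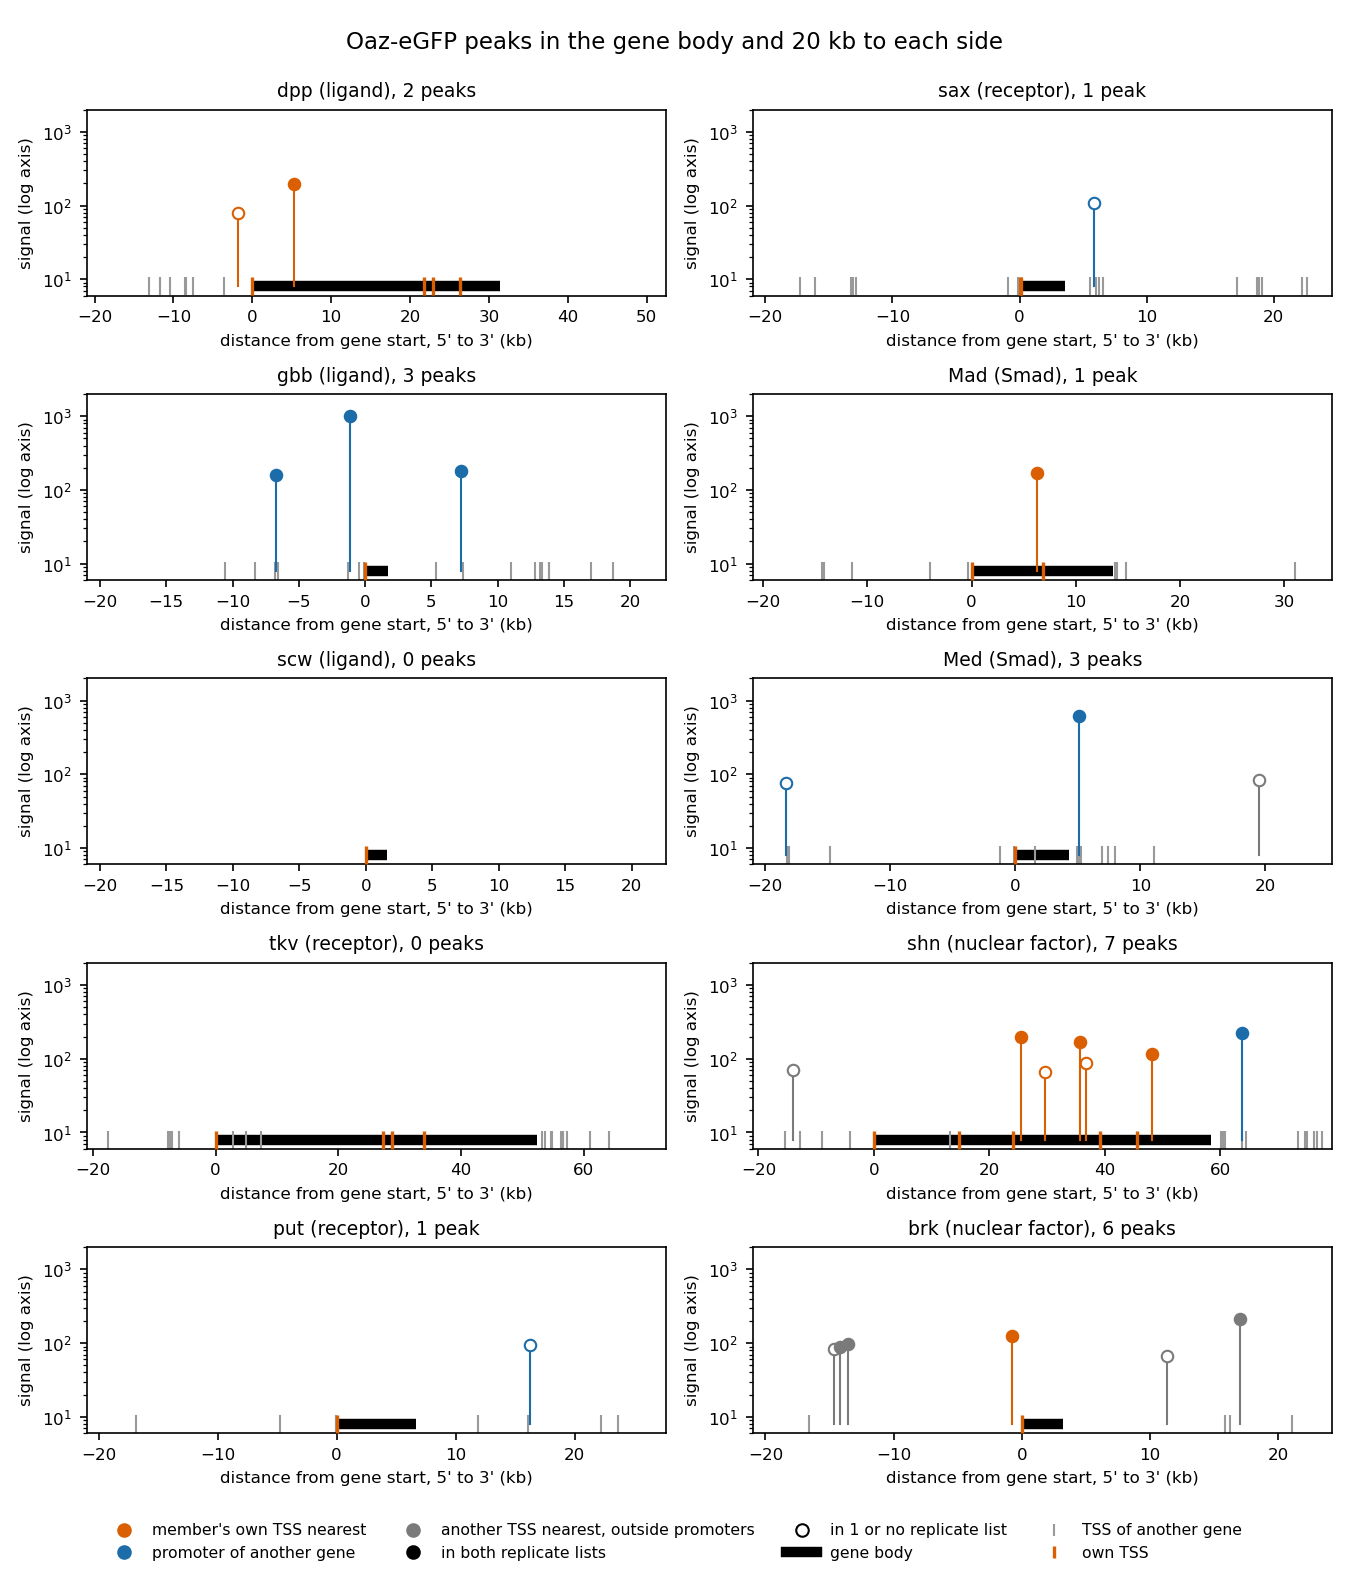
Peaks in the window of each of the 10 genes, by distance from the gene start along the gene's strand in kb (x axis) and deposited signal (y axis, log scale). Orange points are peaks nearest to a TSS of the gene itself (9 peaks), blue points peaks in another gene's promoter (8) and grey points the other 7, with filled points where both replicate lists held the peak; black bars are gene bodies and ticks are TSSs.

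The sequences printed here are the summit and 100 bp to either side of it for 4 of the 9 peaks nearest to a pathway gene's own TSS, those at dpp, Mad and brk. They show the DNA around the peak summits at these genes, and contact of Oaz-eGFP with any motif marked in them was not measured. All are read 5′ to 3′ on the plus strand of dm6, and capitals mark the searched motifs: CAGGTA, the core of sites of the early embryonic activator Zelda, CACTGT, the reverse complement of ACAGTG, and GGCGCC, a site form of Brinker. The first lies at chr2L:2426503-2426703 upstream of dpp, the second at chr2L:2433541-2433741 in an intron of dpp, the third at chr2L:3153276-3153476 in an intron of Mad, which runs on the minus strand, and the fourth at chrX:7307065-7307265 upstream of brk. The window at brk held none of the motifs marked.
dpp upstream: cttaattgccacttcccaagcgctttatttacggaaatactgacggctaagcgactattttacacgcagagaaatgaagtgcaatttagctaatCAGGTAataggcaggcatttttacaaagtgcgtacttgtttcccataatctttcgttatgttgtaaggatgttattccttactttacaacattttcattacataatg
dpp intron: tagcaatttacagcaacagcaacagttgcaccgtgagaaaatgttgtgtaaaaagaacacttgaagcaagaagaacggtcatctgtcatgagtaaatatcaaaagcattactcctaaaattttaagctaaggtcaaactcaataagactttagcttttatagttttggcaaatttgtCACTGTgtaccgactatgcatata
Mad intron: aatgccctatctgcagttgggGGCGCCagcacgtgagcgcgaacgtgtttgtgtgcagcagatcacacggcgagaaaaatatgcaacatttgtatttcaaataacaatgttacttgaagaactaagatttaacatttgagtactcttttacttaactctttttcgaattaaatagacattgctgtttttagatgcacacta
brk upstream: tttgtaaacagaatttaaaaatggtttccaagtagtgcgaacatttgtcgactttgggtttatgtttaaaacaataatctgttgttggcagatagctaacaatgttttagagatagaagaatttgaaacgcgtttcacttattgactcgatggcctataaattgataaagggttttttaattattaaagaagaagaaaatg

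Among the ligand genes, dpp had 2 peaks nearest to its own TSS, 1 of them by a narrow margin. The gene gbb had strong peaks that belonged by position to its neighbours, and scw had none. The dpp gene (FBgn0000490, 2L 2428372 to 2459823, plus strand) had 2 peaks. The stronger, at 2L 2433476 to 2433805, lay in a dpp intron 5269 bp from the gene start, with a signal of 198 and rank 483 of the listed peaks. Its signal was 106 in replicate 1 and 86.7 in replicate 2, and both lists held it. The weaker dpp peak, at 2L 2426438 to 2426767, lay between genes 1769 bp upstream, with a signal of 78.2 and rank 2036. The TSS of CG44139, at -3.575 kb from the dpp start, was almost as close to this peak as that of dpp. The weaker peak is thus not clearly closer to dpp. This peak was in the list of replicate 2 alone, with a signal of 46.7, and in replicate 1 it had 36.2, below that list's threshold.

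The gene gbb (FBgn0024234, 2R 23851562 to 23853247, plus strand) is a short gene with 13 starts of other genes in its window. Its 3 peaks all lay in promoters of these neighbours and in both replicate lists. The strongest peak of any pathway window, at 2R 23850285 to 23850532, lay 1151 bp upstream of gbb and 110 bp from the TSS of eIF6, a ribosome biogenesis factor, inside the gene ytr. It had a signal of 997 and rank 13, with 599.9 in replicate 1 and 397 in replicate 2. The peak at 2R 23844709 to 23845038, with a signal of 158, lay 111 bp from the TSS of Snap29, which encodes a membrane fusion protein. This peak also lay within 500 bp of the TSS of CG5554. Its signals were 86.2 in replicate 1 and 72.5 in replicate 2. The peak at 2R 23858622 to 23858951, with a signal of 183, lay 134 bp from a TSS of bgcn, a gene of germline differentiation, with 94.3 in replicate 1 and 77.9 in replicate 2. No peak of this locus had gbb as the gene with the nearest TSS.

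The gene scw (FBgn0005590, 2L 19699379 to 19700968, minus strand), which lies inside the longer genes Lar and CG46244, had no peak in its window. No TSS of another protein-coding gene lay there either. Of 38 peaks ranked there before any threshold, the best had an irreproducible discovery rate (IDR) of 0.0917, where the listed peaks have 0.01 or less. The deposited value is the global IDR, the expected share of irreproducible peaks among those ranked as high or higher. It had a signal of 53.1 and lay 19950 bp downstream of the scw start. In the single replicates the lowest IDR in this window was 0.640 in replicate 1 and 0.642 in replicate 2.

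None of the 3 receptor genes had a peak of its own in the list made from both replicates. The type I receptor gene tkv (FBgn0003716, 2L 5219000 to 5271384, minus strand) spans 52385 bp, and its window of 92.4 kb had no listed peak. The best ranked peak there, at 2L 5262686 to 5263015 in a tkv intron, came close to the threshold, with an IDR of 0.0134 and a signal of 70.7. It lay 8533 bp from the tkv start. The TSS of Cyp4ac1, which lies within tkv at 7.383 kb from that start, was closer to the peak than any tkv TSS. The list of replicate 1 did hold a peak at this place, with a signal of 49.3 and an IDR of 0.00935, while that of replicate 2 held none in the window. The other type I receptor gene, sax (FBgn0003317, 2R 7806484 to 7810067, plus strand), had 1 peak at 2R 7812212 to 7812541, 127 bp from the TSS of puml and 2310 bp beyond the end of sax. This peak also lay within 500 bp of the TSS of TTLL12. It had a signal of 108, was in the list of replicate 1 alone with 57.6, and had 42.4 in replicate 2. The type II receptor gene put (FBgn0003169, 3R 14619030 to 14625703, minus strand) had 1 peak at 3R 14609288 to 14609617, 189 bp from the TSS of CG14853 and 9577 bp beyond the end of put. It had a signal of 95.4 and was in the list of replicate 2 alone with 61.5, against 48.6 below the threshold in replicate 1.

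The Smad genes differed in where their peaks lay. Mad (FBgn0011648, 2L 3146056 to 3159643, minus strand), the receptor-regulated Smad, had 1 peak, at 2L 3153211 to 3153540 in an intron. Its summit lay 6267 bp from the gene start and 623 bp from an internal Mad TSS. Its signal was 169 with rank 664, and the replicates gave 106 and 68.2 in replicates 1 and 2. Med (FBgn0288966, 3R 31611046 to 31615375, plus strand), the common-mediator Smad, had 3 peaks, none in its body and none nearest to its TSS. The strongest, at 3R 31616076 to 31616285, lay 800 bp beyond the end of Med and 15 bp from a TSS of Mnat9, which encodes a microtubule-associated acetyltransferase-like protein. This peak also lay within 500 bp of the TSS of CG1792. It had a signal of 623 and rank 45, with 383 in replicate 1 and 235 in replicate 2. The peak at 3R 31592584 to 31592913, 54 bp from the TSS of CG1774 and 18297 bp upstream of Med, had a signal of 77.4 and was in the list of replicate 2 alone. The peak at 3R 31630341 to 31630670 in an intron of kek6, a gene for a leucine-rich repeat receptor, had a signal of 82.5 and was in the list of replicate 1 alone.

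The nuclear factors shn and brk had most of the peaks, 13 of 24. The gene shn (FBgn0003396, 2R 11159086 to 11217394, plus strand) spans 58309 bp with 5 TSSs, and 5 of its 7 peaks lay in its introns. The first intron peak, at 2R 11184374 to 11184703, lay 1315 bp from a shn TSS with a signal of 200.2, and the replicates had 145 (replicate 1) and 54.4 (replicate 2). The second, at 2R 11188579 to 11188908, had 65.3 and was in the list of replicate 1 alone. At 2R 11194640 to 11194969 the signal was 169, with 80.7 in replicate 1 and 86.0 in replicate 2. Stronger and weaker peaks alternated along the gene. A peak close by, at 2R 11195565 to 11195894, had 88.6 and was in neither replicate list. The last intron peak, at 2R 11207069 to 11207398, had 116, with 66.7 in replicate 1 and 49.9 in replicate 2. All 5 were nearest to a TSS of shn, at distances of 1315 to 5520 bp. The strongest peak of the window lay downstream of shn, at 2R 11222698 to 11222812, 143 bp from the TSS of CG7737. It had 221, with 103 and 105 in replicates 1 and 2. The remaining peak, 13971 bp upstream in an intron of CG13229, had 71.2 and was in neither replicate list.

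The repressor gene brk (FBgn0024250, X 7307939 to 7311132, plus strand) is short, yet 6 peaks lay around it and none in its body. The peak nearest to it, at X 7307000 to 7307329, lay 774 bp upstream of its only TSS, with a signal of 124 and rank 1081. It had 86.9 in replicate 1 and 43.5 in replicate 2, both past the threshold. A cluster of 3 peaks lay between 14684 and 13565 bp upstream, between positions 7293090 and 7294538 of X, and their signals were 83.3, 88.8 and 97.5. In replicate 1 these had 44.6, 47.5 and 47.6, all in its list. In replicate 2 they had 41.2, 50.6 and 51.5, of which 41.2 was below the threshold. Their nearest TSS was that of unc-119, 1957 to 3076 bp away. Downstream, a peak at X 7319120 to 7319449 in an intron of the autophagy gene Atg5 had 67.2 and was in neither replicate list. The strongest peak of the brk window, at X 7324828 to 7325157 in an intron of Dok, a signalling adaptor gene, had 215 and rank 423, with 115 in replicate 1 and 93.8 in replicate 2. All 6 summits also lay in an intron of CG1677, since 1 long transcript of that gene spans brk, and without it 4 of them would lie between genes.

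Set beside window length, shn and brk held more peaks than the mean density of 20.2 peaks per Mb gives. The window of shn, 98.3 kb long, had 7 peaks where the mean density gives 1.98, and 0.644% of all protein-coding genes had as many in their own windows. The window of brk, 43.2 kb long, had 6 where the density gives 0.87, and 1.45% of genes had as many. Both counts depended on the list: without replicate 1 shn had 4 and brk 4, without replicate 2 both had 5, and at an IDR of 0.001 or less shn had 3 and brk 2. For gbb and Med the counts of 3 stood beside 0.84 and 0.893, and 18.8% of genes had as many. These shares of genes were not matched for window length, and the window of shn is the longest of the 10. The other windows had 0 to 2 peaks, beside 0.838 to 1.86 from the density. Starts of other genes numbered 13 in the window of shn and 4 in that of brk. Over all 10 windows, 577 kb long in sum, the count was 24 beside 11.6. The mean density was taken over the full length of all arms, Y included, while each window was set around a gene. Within gene bodies, 3 of 10 pathway genes had a summit (dpp, Mad and shn), against 8.50% of all genes, and these are among the 4 pathway genes longer than 10 kb. Of all genes longer than 10 kb, 32.9% had a summit in the body.

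**Figure D2:**
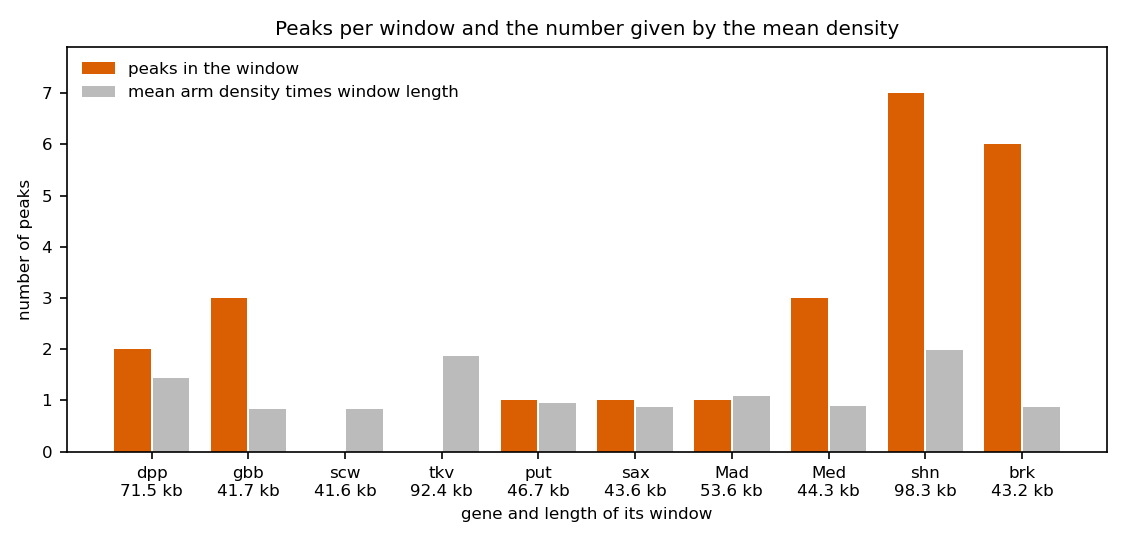
Number of peaks in the window of each gene (orange bars) and the number that the mean density on the arms gives for a window of that length (grey bars), with the window length under each name. Orange bars stand furthest above the grey ones at shn (7 beside 1.98), brk (6 beside 0.87), gbb (3 beside 0.84) and Med (3 beside 0.893). The genes scw and tkv have no peak.

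Both replicates listed most of the stronger peaks. Of the 24 peaks, 14 overlapped a peak of both replicate lists by 1 bp or more, against 45.5% of all arm peaks, and 7 were in 1 list and 3 in neither. The genes with such a shared peak were dpp, gbb, Mad, Med, shn and brk, 6 of 10, against 43.0% of all genes. The shared peaks had signals of 88.8 to 997 with a median of 176, those in 1 list had 65.3 to 108, and those in neither had 67.2 to 88.6. Lists are cut by how well peaks rank, so this order partly follows from their making.

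Replicate 1 gave the higher signal at 10 of the 14 shared peaks and replicate 2 at 4. On the log2 scale the signal in replicate 1 over that in replicate 2 had a median of 0.30 among the 14 peaks (SD 0.44), and of 0.36 among all 1260 shared arm peaks (SD 0.36). The first intron peak of shn stood out with a log2 ratio of 1.41, which only 3 of the 1260 reached, this peak among them. The peak 774 bp upstream of brk had 1.00, and 4.37% of the 1260 had as much. The shn peaks 35719 and 63642 bp from the gene start had -0.09 and -0.04.

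**Figure D3:**
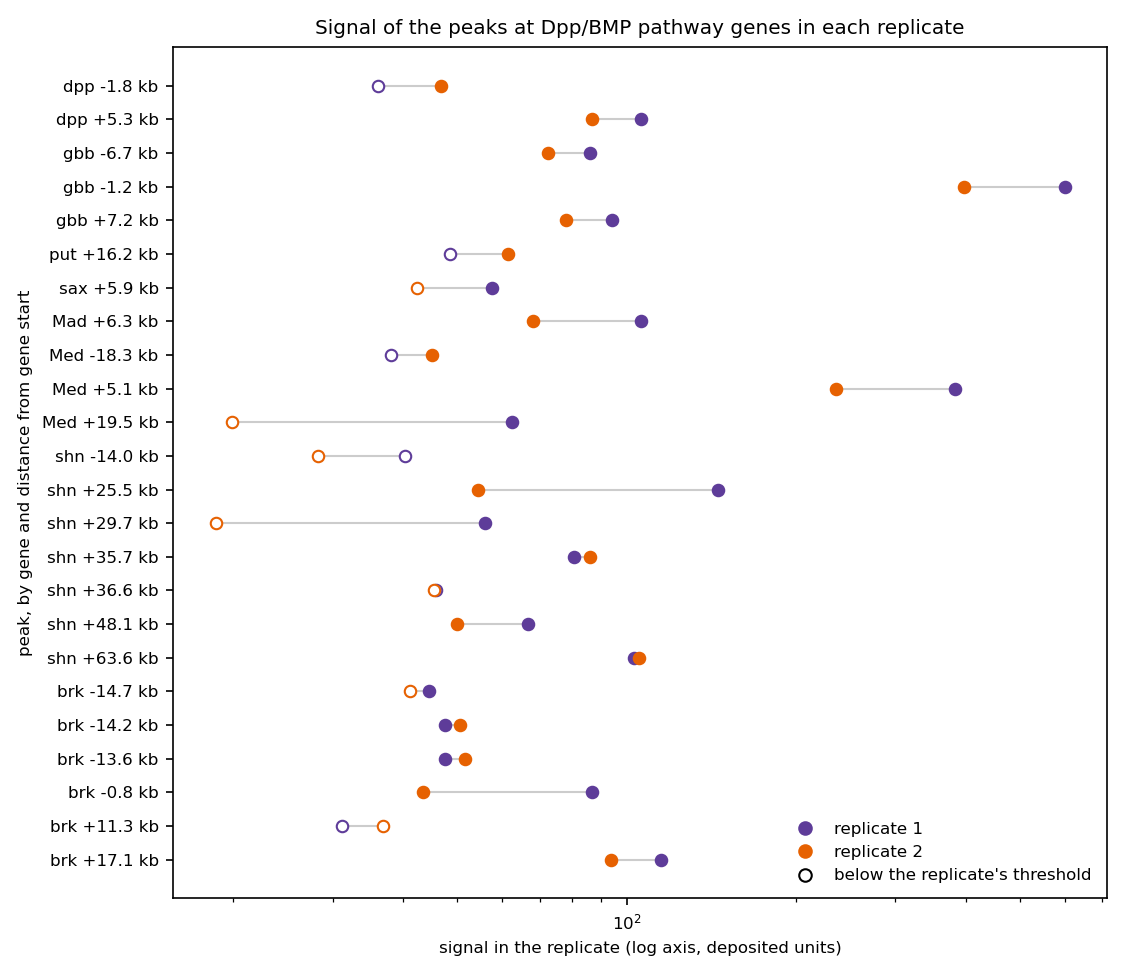
Signal of each of the 24 peaks in replicate 1 (purple) and replicate 2 (orange), on a log axis in deposited units, by gene and distance from the gene start. Open points lie below the threshold of that replicate's list; the widest gap among peaks in both lists is at the first intron peak of shn, with 145 in replicate 1 and 54.4 in replicate 2.

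In strength, the peaks of the pathway genes spread over most of the list. Their signals ran from 65.3 to 997 with a median of 112, and all arm peaks had a median of 103. Of the 24, 9 had a signal of 163 or more, 4 had 103 to 163, 8 had 75.5 to 103 and 3 had less, where these bounds cut all arm peaks into 4 groups of equal size. The 8 peaks in promoters of other genes had a median of 171, the 9 peaks nearest to a pathway gene's own TSS a median of 124 with none above 200.2, and the other 7 a median of 83.3. Over all arm peaks the median was 121 in promoters, 95.8 in introns and 87.8 between genes. The peaks nearest to an own TSS were in both replicate lists in 6 of 9 cases, those in promoters of other genes in 5 of 8, and the remaining class in 3 of 7. Over all arm peaks, 54.4% of those in promoters, 40.5% of those in introns and 36.9% of those between genes were in both lists.

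**Figure D4:**
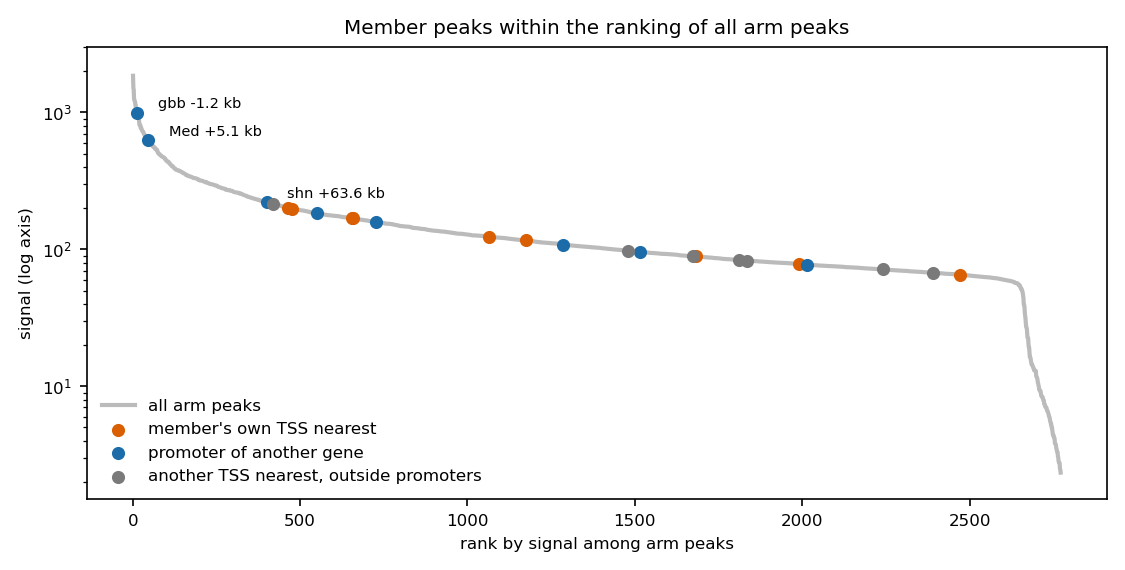
Signal (log axis) against rank by signal for all 2772 arm peaks (grey line), with the 24 peaks of the pathway genes as points coloured by the gene with the nearest TSS. The strongest points, at gbb (997) and Med (623), lie in promoters of other genes, and the orange points start at 200.2.

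Introns held 15 of the 24 summits, promoters 8 and sequence between genes 1. Over all arm peaks these shares were 36.7%, 44.1% and 16.2%. The intron count rests on shn and brk, with 6 each, and it was 11 when CG1677 was not counted as a host gene. The median distance to the nearest TSS of any protein-coding gene was 1244 bp, and 728 bp over all arm peaks. The windows at the summits had a median GC content of 35.3%, as did those of all arm peaks.

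Short sequence motifs were sought on both strands within 100 bp of each summit. The letters ACAGTG were in 5 of 24 windows, against 22.2% of all arm peaks, namely the dpp intron peak, the peaks at puml and Mnat9 in the sax and Med windows, the first intron peak of shn and the peak at CG7737. The count was 1 within 50 bp of the summit and 11 within 200 bp. The repeat GAGAG, bound by GAGA factor, was in 6 windows and 21.2% of all, CAGGTA in 1 and 4.69% of all, and GTCTG, which holds the short Smad box, in 2 and 17.7% of all. Of Brinker site forms, GGCGCC was in 1 window (Mad) and 3.57% of all, and GGCGCT in 0 and 5.59% of all. The letters GCACCC, described for vertebrate relatives of Oaz, were in 0 windows and 4.26% of all, and TATCGATA, the DNA replication-related element, in 0 and 2.78% of all. The composite element through which Mad, Medea and schnurri silence brk was in 0 windows here and in 0 of all 2772. Of these motifs only GTCTG is a fixed part of another, the silencer element, whose variable positions also admit GGCGCC.

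Other genes of the pathway also had peaks, some at their own promoters or introns and some at those of neighbours. Of 11 genes for extracellular regulators, 10 had a peak in the window and 7 a peak in both replicate lists, against the 65.4% and 43.0% of all genes given above, and 6 were nearest to a peak in it, where 14.9% of all genes were nearest to some summit. The strongest such peaks were those in the windows of cv and magu. That of cv, a carrier of BMP ligands, had 278 (179 in replicate 1 and 90.0 in replicate 2). It lay between genes, 6514 bp from the cv start, and the nearest TSS was that of CG3149, 1311 bp away. That of magu, a secreted feedback regulator, had 191 (118 and 66.1 in replicates 1 and 2) and lay 280 bp from a magu TSS. The adjacent metalloprotease genes tld and tok shared 1 peak of 169.9 in the promoter of CG13631. Only tsg of this list had no peak.

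Of 13 genes of the activin branch, related receptors and intracellular regulators, 8 had a peak (61.5%, against 65.4% of all genes) and 5 a peak in both lists (38.5%, against 43.0%), both shares near those of all genes. The TSS of 5 was nearest to a peak in the window, against 14.9% of all genes nearest to some summit. The corepressor gene gro had a peak of 316 at 140 bp from its own TSS, with 182 in replicate 1 and 131 in replicate 2. The type II receptor gene wit had one of 270.2 in its own intron, with 163 and 105 in replicates 1 and 2. The strongest, of 425 in the window of the coactivator gene nej, lay in the promoter of Ptpmeg2, and that of the inhibitory Smad gene Dad, of 310.4, lay in an intron of kuk. The 5 genes with no peak were Actbeta, daw, myo, mav and Smurf.

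Of 19 target genes, 14 had a peak (73.7%, against 65.4% of all genes), and the same 14 had a peak in both lists, against 43.0%. The TSS of 6 was nearest to a peak in the window, against 14.9% of all genes, and 2 had a summit in the body, against 8.50% of all genes. The strongest in their windows lay at other genes, with 589 for bam at CG11857, 539.9 for eve at Pal1, 535 for C15 near sp3 and 479 for Ance at Smg5. The 5 target genes with no peak were pnr, peb, salm, salr and lab. Some windows of this list overlap, such as those of Doc1, Doc2 and Doc3, and their counts are not independent.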

How the data were processed

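The authors sonicated the chromatin to 200 to 800 bp before immunoprecipitation and sequencing, per the labels, which name both Oaz and GFP as the antibody. The 8 deposited peak lists, 4 thresholded and 4 ranked, are on dm6, made from alignments of 1 or both replicates and a further input, per the notes deposited beside each replicate. The tools for alignment and peak calling were not given in the sources used here. Each peak has a deposited signal, and ranked peaks the deposited −log10 of the global IDR. Per-library columns of ranked lists (8) were not used. Signals were compared as deposited, and the signal of both replicates together is not on a single replicate's scale. Where a replicate had several overlapping peaks, the strongest was taken.

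Genes and TSSs came from Ensembl release 115, and sequence from the RefSeq copy of genome Release 6, whose arm lengths held all arm peaks. Summits were placed in the order promoter, 5' UTR, CDS, 3' UTR, intron, intergenic. The counting code was checked on simulated peaks placed at known positions, which is no test of the counts themselves. The genes, lists, motifs and named genes (all 10, and up to 4 per other list by their strongest peak in both replicate lists) were chosen with earlier results of these data known. All symbols matched. Nearest genes only locate peaks, and regulation was not measured. Sites on arm 2R are given without sequence. Python 3.11.15, numpy 2.4.6, pandas 2.3.3 and matplotlib 3.10.9 were used. Alternatives changed the list, IDR, windows, overlap and promoter width.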

Additional observations from a re-analysis of the deposited data

How the results depend on the processing

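With an IDR of 0.001 or less, 11 of the 24 peaks remained, 5 in promoters and 5 nearest to the own TSS, and put and sax had none. Counted in gene bodies alone, 3 genes had 7 peaks. With 5 kb to each side there were 12 peaks and with 50 kb 42. ACAGTG lay within 50 bp of 1 summit and within 200 bp of 11. In the lists of single replicates, 8 genes (replicate 1) and 7 (replicate 2) had 19 and 17 peaks, with 6 and 7 in promoters and 7 each nearest to the own TSS. In these, 6 and 5 windows held ACAGTG, tkv had 1 peak in replicate 1, put had none there, and sax had none in replicate 2. The other 33 values for the 10 genes as a whole stayed within 1.5 times or 1 SD of the reported one, and 60 of 90 counts of single genes did so. The other peak lists for promoters, the own TSS and ACAGTG, the overlap for the ratio and the setting without CG1677 were chosen after seeing the data. No paired analysis was possible because there is 1 group. Unknown depth limits what an absent peak means: at scw and tkv, peaks were not past the threshold, which does not show that binding is absent.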

Other observations

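The limit of 20 kb left some peaks just outside. The closest, of signal 121, lay 422 bp past the window of gbb, and the strongest of the nearest peaks outside, of 810.1, lay 2506 bp past that of Med at 3R 31588405 to 31588657, where CG1635 had the nearest TSS. Around brk, peaks of 132 and 86.5 lay 1585 and 1624 bp past either end of the window. With 50 kb to each side brk had 12 peaks. Past the window of tkv, a peak of 177 lay 28100 bp from the gene, and the nearest TSS was that of vri.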
